A study of Homo sapiens with 18 samples.

Results

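The androgen response that differed between LNCaP and C4-2 was described in the 12 libraries transfected with the scrambled siRNA (siScr), out of 18 libraries in the series. For each gene the R1881 response of each line, R1881 against vehicle, was estimated, and the difference of the responses (C4-2 minus LNCaP, the interaction of line and treatment) was tested across all 18138 genes that passed a filter on low counts, out of 60675 annotated genes. A gene was called when its Benjamini-Hochberg adjusted p was under 0.05 and its log2 difference was at least 1 in size, and 782 genes were called for the interaction.

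LNCaP is an androgen-sensitive line from a lymph node metastasis of prostate cancer, and C4-2 is a line derived from LNCaP that grows without added androgen. Androgen signalling acts on transcription at androgen response elements in DNA, where coactivators or corepressors are recruited. Genes such as KLK3, which encodes prostate-specific antigen, are switched on in this way, while other genes are lowered by androgen. R1881 (metribolone) is a synthetic androgen that cells break down slowly.

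The 4 groups were LNCaP siScr vehicle, LNCaP siScr R1881, C4-2 siScr vehicle and C4-2 siScr R1881, with 3 libraries each. All were kept in hormone-depleted serum and carried 10 nM of the non-targeting siRNA, and the treated groups received R1881 at 1 nM for 72 h. The vehicle was 0.1% DMSO in the methods for the RNA-seq and ethanol in those for cell culture. The remaining 6 libraries, in which KDM1A and KDM7A were both knocked down with R1881 present, were used only to re-estimate the spread. Each group is 1 established line, so a difference between the groups is a difference between these cultures of LNCaP and of C4-2. The cell line field of the C4-2 vehicle libraries reads LNCaP while their titles name C4-2, and the titles were followed. KLK3 and HGF, given below, set the C4-2 vehicle libraries apart from the LNCaP vehicle libraries in the same way as the C4-2 R1881 libraries from the LNCaP R1881 libraries.

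Counts assigned to genes ranged from 3182604 to 20154243 read pairs per library. The shallowest library, C4-2 siScr vehicle replicate 3, also lay farthest from its group (SD of log2 deviations 0.218 against 0.077 to 0.136 in the other 11). The count of genes called for the interaction is therefore given without it as well. Summed CPM of 7 luminal prostate markers ran from 1838 to 8633 over the 12 libraries, whereas 3 basal markers summed to at most 1.55 CPM and 3 leukocyte markers to at most 3.74 CPM. The leukocyte sum was 2.20 to 3.74 CPM in C4-2 vehicle and at most 0.715 CPM elsewhere. Summed CPM of 4 fibroblast markers was 17.6 to 19.2 in LNCaP vehicle, 7.18 to 11.6 in LNCaP R1881, 33.0 to 41.3 in C4-2 vehicle and 17.7 to 25.2 in C4-2 R1881, and 3 endothelial markers summed to 5.66 to 20.4 CPM. The part of these markers in the results was not tested. The labels do not state whether replicates were separate cultures, so the p-values measure the spread between these libraries. In bulk RNA, a change in every cell and a change in the share of cells expressing a gene cannot be told apart.

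R1881 changed more genes in LNCaP than in C4-2. In LNCaP 960 genes were induced and 1076 repressed (5.29% and 5.93% of the genes tested), and in C4-2 1626 genes were called, 730 of them induced (4.02% of the genes tested) and the others repressed (4.94%). A total of 838 genes were called in both lines, which is 41.2% of the genes called in LNCaP and 51.5% of those called in C4-2, and 808 of them moved in the same direction. Among the 808, the median size of the log2 response was 2.04 in LNCaP and 1.86 in C4-2. Across the 9975 genes with a mean of at least 10 CPM, the log2 responses of the lines had a Pearson r of 0.757, given as a description since genes are not independent replicates.

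The interaction was called for 4.31% of the genes tested, with a higher response in C4-2 for 365 genes (2.01%) and a lower one for 417 (2.30%). Of the 1198 genes called in LNCaP and not in C4-2, only 314 were called for the interaction, as were 208 of the 788 called in C4-2 and not in LNCaP. A gene past the threshold in only 1 line was therefore counted as differing only where the interaction itself was called. Without C4-2 siScr vehicle replicate 3 the interaction was called for 824 genes, 729 of them among the 782. Without the 2 shallowest libraries, an alternative added after the data were seen, it was called for 873, 713 of them among the 782. The trend of counts with GC content also differed between groups (0.20 to 0.44 log2 in C4-2 vehicle and -0.45 to 0.092 in the other 9 libraries), and with it removed 817 genes were called, 748 of them among the 782. Of the 782 genes, 611 were protein coding, 86 had a mean under 1 CPM and 292 had a mean of at least 10 CPM.

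The 782 genes were sorted by the direction of the response in each line. A response in 1 line only, called there and with an adjusted p of at least 0.05 in the other line, was seen for 400 genes, 238 in LNCaP (113 induced, 125 repressed) and 162 in C4-2 (73 induced, 89 repressed). For the classes in which both lines responded, an adjusted p under 0.05 in each line was enough, with no fold threshold on the single line. By that rule both lines responded in the same direction for 205 genes, of which 161 responded more strongly in LNCaP (92 induced, 69 repressed) and 44 more strongly in C4-2 (24 induced, 20 repressed). The lines responded in opposite directions by that rule for 110 genes, 66 up in LNCaP and down in C4-2 and 44 down in LNCaP and up in C4-2. The remaining 67 genes met neither rule. With the 2-fold threshold required in each line as well, 114 of the 782 genes were in the same direction. Among all genes called in both lines, 30 were in opposite directions, counted without asking for the interaction call. The count induced in C4-2 only was 48 without LNCaP siScr vehicle replicate 2 and 46 without C4-2 siScr R1881 replicate 1.

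Genes are named below by size of the interaction within each class, and a second set per class, limited to a mean of at least 10 CPM, was chosen after the values were seen. SEs are given after ±, with 3 libraries per group throughout.

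**Figure D1:**
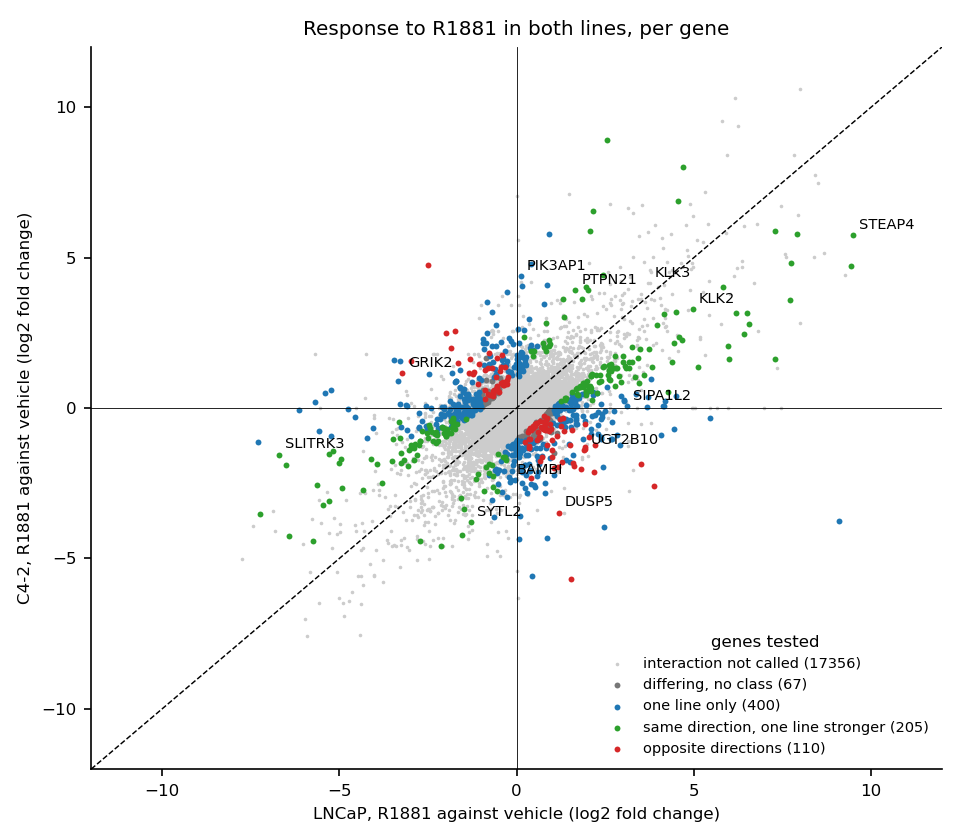
Fitted log2 fold change with R1881 in LNCaP (horizontal axis) against that in C4-2 (vertical axis) for the 18138 genes tested, coloured by the kind of difference, with equal responses on the dashed line and uncertain positions for genes with almost no counts in a group. Responses of the 9975 genes at 10 CPM or more had an r of 0.757, and the 110 genes with opposite responses occupy the upper left and lower right.

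KLK3, KLK2, TMPRSS2 and FKBP5, classical androgen targets, were induced in both lines. KLK3 (ENSG00000142515, chr19:50854915-50860764) had 368, 340.0 and 348 CPM in LNCaP vehicle, 4494, 4531 and 4833 in LNCaP R1881, 22, 24.8 and 19.1 in C4-2 vehicle and 400.4, 386 and 425 in C4-2 R1881. All R1881 libraries lay above all vehicle libraries of their line, and C4-2 started and ended lower than LNCaP. Its log2 response was 3.71 ± 0.074 in LNCaP and 4.16 ± 0.083 in C4-2 and the interaction of 0.44 ± 0.10 (adjusted p = 0.00664) fell short of the 2-fold threshold.

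KLK2, the neighbouring kallikrein gene (chr19:50861568-50880567), went the other way. It had 29.8, 27.7 and 27.5 CPM in LNCaP vehicle, 857, 835 and 956 in LNCaP R1881, 27.3, 28 and 22.4 in C4-2 vehicle and 259, 255 and 269.8 in C4-2 R1881. The vehicle libraries of the lines overlapped and the R1881 libraries did not, those of LNCaP being higher. The log2 response was 4.96 ± 0.085 in LNCaP and 3.29 ± 0.083 in C4-2, an interaction of -1.67 ± 0.11 (adjusted p = 1.42e-08).

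TMPRSS2, a serine protease gene (chr21:41464551-41531116), had 70.7, 66.8 and 70.6 CPM in LNCaP vehicle, 1191, 1181 and 1313 in LNCaP R1881, 67.3, 83.4 and 66.5 in C4-2 vehicle and 623, 614 and 657 in C4-2 R1881. Its interaction was -1.04 ± 0.11 (adjusted p = 5.47e-06), and it dropped to -0.90 without C4-2 siScr vehicle replicate 2 and to -0.99 without LNCaP siScr R1881 replicate 3, just under the fold threshold. FKBP5, an androgen-induced co-chaperone, had an interaction of -0.99 ± 0.089 (adjusted p = 6.84e-07), with log2 responses of 4.25 in LNCaP and 3.26 in C4-2. FKBP5 passed the threshold in 4 of the 12 fits that left out 1 library each: -1.04 without LNCaP siScr R1881 replicate 1, -1.02 without LNCaP siScr vehicle replicate 2, without C4-2 siScr vehicle replicate 3 and without C4-2 siScr R1881 replicate 3.

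FOXA1, a pioneer factor that opens chromatin, gave an interaction of -0.19 ± 0.089 (adjusted p = 0.178). The targets of the siRNAs in the other libraries, the demethylase genes KDM1A and KDM7A, gave 0.27 ± 0.085 (adjusted p = 0.0439) and 0.60 ± 0.12 (adjusted p = 0.00259). KDM7A rose in both lines, from 40.4, 44.3 and 37.7 to 55.9, 66.3 and 60.3 CPM in LNCaP and from 51.4, 57.6 and 53.7 to 114, 120.1 and 134 CPM in C4-2.

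The upstream sequences of KLK3 and KLK2 are shown because these adjacent genes had interactions of opposite sign. Each run gives the 250 bases before the RefSeq start on GRCh38.p14, plus strand, KLK3 at chr19:50854665-50854914 and KLK2 at chr19:50873189-50873438, the latter inside the gene span used for counting, and capitals mark the androgen response element half-site AGAACA, searched on both strands.
KLK3: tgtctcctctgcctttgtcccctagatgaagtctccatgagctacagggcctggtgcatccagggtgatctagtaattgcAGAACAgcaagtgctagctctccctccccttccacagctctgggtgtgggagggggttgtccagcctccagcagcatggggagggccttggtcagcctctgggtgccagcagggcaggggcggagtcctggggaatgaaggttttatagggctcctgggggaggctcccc
KLK2: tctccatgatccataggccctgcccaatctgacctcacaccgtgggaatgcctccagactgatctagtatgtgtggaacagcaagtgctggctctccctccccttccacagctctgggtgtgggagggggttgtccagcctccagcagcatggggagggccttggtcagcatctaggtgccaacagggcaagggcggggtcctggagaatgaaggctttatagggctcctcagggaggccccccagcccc
The half-site occurred once in the KLK3 window and the exact letters were not found in the KLK2 window. The matching stretch of KLK2 reads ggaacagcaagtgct where KLK3 reads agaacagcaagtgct, a difference of 1 base. A search for exact letters therefore cannot show that KLK2 lacks an androgen response element. The longest run identical in both windows was 80 bases. Among the 11357 tested genes with a promoter sequence, 7.7% held AGAACA in these 250 bases. None held the exact letters of the full element, AGAACA and TGTTCT with any 3 bases between them. Full elements with other letters were not searched, so this does not show that the promoters lack them. Among the classes the share ran from 2.78% (1 of 36 genes down in LNCaP and up in C4-2) to 19.1% (9 of 47 repressed in both lines and stronger in LNCaP). It was 4.55% of 44 genes up in LNCaP and down in C4-2, 4.62% of 65 repressed in C4-2 only, 8.47% of 59 induced in both lines and stronger in LNCaP and 8.51% of 47 induced in C4-2 only, and the androgen-induced list held it in 1 of 19 (5.26%). These shares are descriptions.

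Genes induced in LNCaP only had a median log2 response of 1.66 in LNCaP and -0.065 in C4-2. SIPA1L2 (chr1:232397965-232561558), a GTPase-activating protein of the Rap family, had 20.3, 24 and 19 CPM in LNCaP vehicle, 184, 192 and 173 in LNCaP R1881, 34.4, 36.9 and 32.5 in C4-2 vehicle and 34.9, 38.9 and 35.5 in C4-2 R1881. The LNCaP R1881 libraries stood above the other 9, among which the C4-2 groups overlapped. The response was 3.11 ± 0.088 in LNCaP and 0.059 ± 0.088 in C4-2, an interaction of -3.05 ± 0.12 (adjusted p = 3.18e-11).

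KLF6 (chr10:3775996-3785281), a zinc finger transcription factor, had 15.8, 14.3 and 14.8 CPM in LNCaP vehicle, 47.8, 51.7 and 45 in LNCaP R1881, 14.2, 13.1 and 15.2 in C4-2 vehicle and 15, 15.4 and 14 in C4-2 R1881. Only the LNCaP R1881 libraries departed from about the same level, and the interaction was -1.61 ± 0.13 (adjusted p = 2.51e-07). CRYBG1, a crystallin-domain protein, rose from 15.4, 16.1 and 12 to 33.7, 37.1 and 35.9 CPM in LNCaP and had 6.30, 9.30 and 7.46 and then 5.23, 4.76 and 7.36 CPM in C4-2, where the groups overlapped, with an interaction of -1.72 ± 0.24 (adjusted p = 8.09e-05). CKMT1B, a mitochondrial creatine kinase, had 19.8, 12.6 and 13.2 CPM in LNCaP vehicle, 36.6, 42.5 and 38.4 in LNCaP R1881, 35.4, 36.7 and 100.2 in C4-2 vehicle and 40.9, 41.6 and 39.3 in C4-2 R1881. Its C4-2 vehicle replicate 3 was far above the other 2, and the interaction of -1.75 ± 0.39 was -1.25 without that library (adjusted p = 3.90e-05). CKMT1B has a near-identical copy, CKMT1A, so its counts are uncertain.

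Genes induced in C4-2 only had a median log2 response of 1.70 in C4-2 and -0.028 in LNCaP. PIK3AP1 (chr10:96593312-96720514), an adaptor that links receptors to phosphoinositide 3-kinase, had 15.7, 15.4 and 14.6 CPM in LNCaP vehicle, 16.8, 16 and 16.4 in LNCaP R1881, 3.10, 2.96 and 4.77 in C4-2 vehicle and 72.9, 61.8 and 69.6 in C4-2 R1881. C4-2 went from the lowest of the 4 groups to the highest. The response was 0.11 ± 0.10 in LNCaP (adjusted p = 0.41) and 4.39 ± 0.13 in C4-2, an interaction of 4.28 ± 0.16 (adjusted p = 2.29e-11).

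MYOF (chr10:93306429-93482317), which encodes myoferlin, a membrane repair and fusion protein, had 2.59, 2.51 and 3.24 CPM in LNCaP vehicle, 4.17, 3.51 and 3.45 in LNCaP R1881, 1.78, 2.79 and 1.79 in C4-2 vehicle and 61.8, 56.1 and 64.7 in C4-2 R1881. The vehicle and R1881 libraries did not overlap in either line, but the LNCaP response of 0.42 ± 0.17 missed the threshold (adjusted p = 0.059) while that in C4-2 was 4.78 ± 0.16, and the interaction was 4.36 ± 0.24 (adjusted p = 1.5e-09). GNAL, the G protein alpha subunit of olfactory signalling, had 1.07, 1.61 and 1.73 and 1.39, 1.42 and 1.87 CPM in LNCaP vehicle and R1881 and rose from 15.4, 18.1 and 6.86 to 91.8, 89.4 and 96.2 CPM in C4-2, an interaction of 2.59 ± 0.36 (adjusted p = 9.26e-05). Here C4-2 started higher than LNCaP as well. ALDH1A1, a retinal dehydrogenase, was near 0 in LNCaP with 4, 0, 2759 and 11104 counts in LNCaP vehicle, LNCaP R1881, C4-2 vehicle and C4-2 R1881, and rose in C4-2 from 67.7, 70.3 and 77.2 to 223, 213 and 210.4 CPM. The interaction of ALDH1A1 was not called without LNCaP siScr vehicle replicate 2 (adjusted p = 0.233), and its LNCaP response rested on 4 counts.

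Genes repressed in LNCaP only had a median log2 response of -1.66 in LNCaP and 0.0024 in C4-2. ZBTB43 (chr9:126805006-126838210), a zinc finger gene, had 119, 131 and 111 CPM in LNCaP vehicle, 28.3, 28 and 30.6 in LNCaP R1881, 27.7, 28.8 and 31.9 in C4-2 vehicle and 29.1, 31.1 and 29.4 in C4-2 R1881. The LNCaP vehicle libraries stood above the other 9, and R1881 brought LNCaP to the level C4-2 held in both conditions. The interaction was 2.10 ± 0.11 (adjusted p = 1.42e-09).

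QSER1, a protein that protects DNA from methylation, had 67.5, 77.7 and 66.5 CPM in LNCaP vehicle, 23.2, 22.6 and 18.4 in LNCaP R1881, 116, 125 and 146 in C4-2 vehicle and 131, 128 and 131 in C4-2 R1881. LNCaP fell by 1.73 on the log2 scale while C4-2 gave 0.027, an interaction of 1.75 ± 0.13 (adjusted p = 9.1e-08). EPHA3, an ephrin receptor, dropped from 7.96, 10.5 and 9.06 to 1.39, 1.49 and 1.23 CPM in LNCaP, and C4-2 held 64.1, 65 and 66.2 and 60.3, 56.2 and 56.3 CPM, an interaction of 2.59 ± 0.16 (adjusted p = 9.89e-09). The PAR bZIP factor gene HLF fell in LNCaP (log2 -1.49) and gave 0.30 in C4-2, where the vehicle and R1881 libraries did not overlap, with an interaction of 1.79 ± 0.21 (adjusted p = 1.6e-05). SESN1, a stress-induced sestrin and the 1 member of the p53 target list to be called higher in C4-2, went from 213, 242 and 227 to 77.5, 85.7 and 79.97 CPM in LNCaP and had 43.1, 42.4 and 43.2 and 46.8, 44.8 and 41.5 CPM in C4-2 (1.54 ± 0.10, adjusted p = 1.38e-08).

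Genes repressed in C4-2 only had a median log2 response of -1.78 in C4-2 and 0.16 in LNCaP. NR2F1 (chr5:93583337-93594615), the orphan nuclear receptor COUP-TF1, had 0.984, 1.80 and 2.40 CPM in LNCaP vehicle, 1.67, 1.2 and 0.585 in LNCaP R1881, 61.1, 54.9 and 58.5 in C4-2 vehicle and 5.62, 4.93 and 3.62 in C4-2 R1881. It was expressed well above the other groups only in C4-2 vehicle, and fell there with R1881, a response of -3.61 ± 0.21 against -0.64 ± 0.32 in LNCaP (interaction -2.97 ± 0.40, adjusted p = 6.25e-05).

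BAMBI (chr10:28677342-28682939), a pseudo-receptor that dampens TGF-beta signalling, had 21.5, 20.2 and 19.5 CPM in LNCaP vehicle, 16.9, 19.7 and 17.7 in LNCaP R1881, 36.8, 41.6 and 49.5 in C4-2 vehicle and 8.24, 8.60 and 6.86 in C4-2 R1881. C4-2 went from above LNCaP to below it, an interaction of -2.23 ± 0.17 (adjusted p = 7.07e-08). ELOVL6, a fatty acid elongase, had 109.5, 124 and 111 and 123, 133 and 130.2 CPM in LNCaP vehicle and R1881 and dropped from 108, 108 and 115 to 40.1, 47.2 and 43.6 CPM in C4-2 (-1.49 ± 0.10, adjusted p = 2.58e-08). BTN3A2, a butyrophilin, fell by 1.34 on the log2 scale in C4-2 and gave 0.29 in LNCaP (-1.63 ± 0.18, adjusted p = 7.42e-06).

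PCDH19, a protocadherin, was expressed almost only in C4-2 vehicle, with 20.5, 22.8 and 19.4 CPM there, 0.390, 0.573 and 0.312 CPM after R1881 and at most 0.374 CPM in any LNCaP library. Its interaction was -6.03 ± 0.73 (adjusted p = 1.86e-05). PMP22, a myelin protein gene on the androgen-repressed list, went from 12, 10.6 and 15.2 to 2.06, 2.01 and 1.18 CPM in C4-2 and had 0.179, 0.379 and 0.559 and 1.11, 0.672 and 0.293 CPM in LNCaP (-3.62 ± 0.56, adjusted p = 0.00027). RBP3 (-4.42 ± 1.10), a retinoid-binding protein, had 5, 5, 398 and 24 counts in LNCaP vehicle, LNCaP R1881, C4-2 vehicle and C4-2 R1881 and DACH1 (-3.68 ± 0.94), a transcriptional corepressor, 65, 62, 49 and 5. RBP3 was not called without LNCaP siScr R1881 replicate 2 (-2.79, adjusted p = 0.431). DACH1 was not called without LNCaP siScr R1881 replicate 2, C4-2 siScr vehicle replicate 1 or C4-2 siScr R1881 replicates 1 or 2 (adjusted p = 0.0510, 0.0574, 0.0632 and 0.0529).

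**Figure D2:**
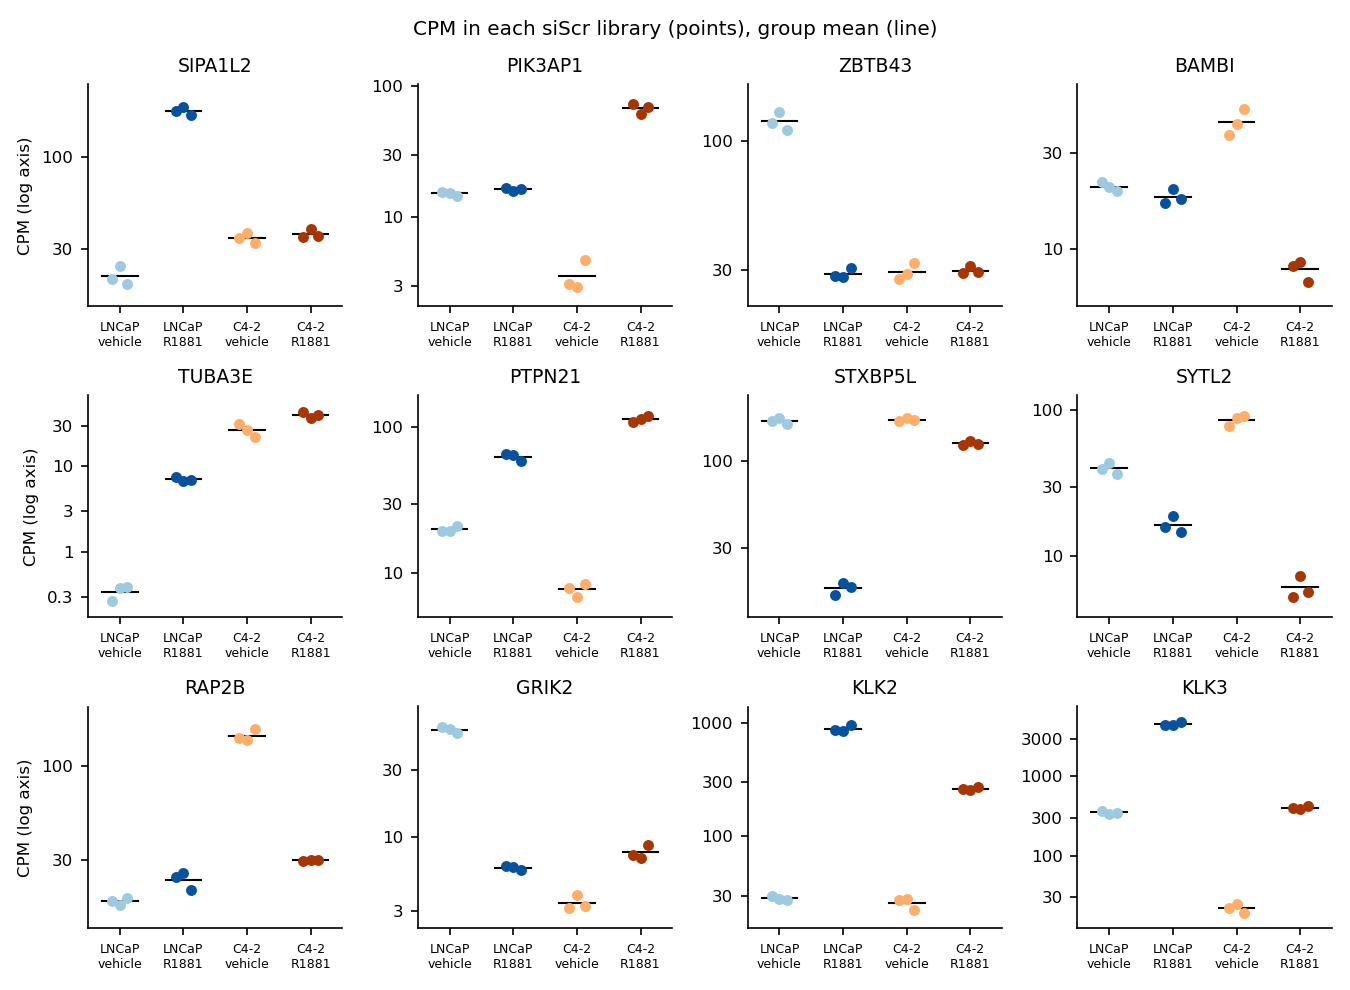
CPM (log axis) of 12 genes in each of the 12 siScr libraries; points are libraries and black lines are the means of 3 libraries. SIPA1L2 rose in LNCaP only, PIK3AP1 in C4-2 only, ZBTB43 fell in LNCaP only and BAMBI in C4-2 only, while RAP2B and GRIK2 moved in opposite directions.

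Among genes induced in both lines, the 92 with the stronger response in LNCaP had medians of 2.71 in LNCaP and 1.23 in C4-2. ANGPT2 (chr8:6499651-6563409), a ligand of the endothelial receptor TIE2, had 1.25, 1.52 and 1.12 CPM in LNCaP vehicle, 74.2, 92.7 and 86.1 in LNCaP R1881, 0.367, 0.872 and 0 in C4-2 vehicle and 1.67, 2.12 and 1.31 in C4-2 R1881. LNCaP rose by 6.0 on the log2 scale and C4-2 by 1.61, an interaction of -4.38 ± 0.52 (adjusted p = 1.63e-05). STEAP4, a metalloreductase, was at or below 0.291 CPM in every vehicle library and reached 59.4, 69.3 and 59.2 CPM in LNCaP and 11.9, 11.1 and 15 CPM in C4-2. The R1881 libraries of LNCaP were all higher. Its interaction of -3.73 ± 0.78 (adjusted p = 0.00332) was not called without C4-2 siScr vehicle replicate 2 (adjusted p = 0.0597). CCDC141 showed the same pattern, reaching 59.4, 65.7 and 56.2 CPM in LNCaP and 11, 13.8 and 12.2 CPM in C4-2 (-4.70 ± 0.65, adjusted p = 8.48e-05, and -8.12 without LNCaP siScr vehicle replicate 2). TUBA3E, an alpha tubulin gene with near-identical copies, had 0.268, 0.379 and 0.391 CPM in LNCaP vehicle, 7.55, 6.80 and 6.91 in LNCaP R1881, 31.6, 26.6 and 22.1 in C4-2 vehicle and 43.5, 36.9 and 39.5 in C4-2 R1881, so that C4-2 vehicle already exceeded LNCaP R1881 (-3.74 ± 0.26, adjusted p = 2.32e-08).

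The abundant genes ABCC4, ABHD2 and SORD also belonged to this class. ABCC4 (chr13:95019829-95301446), an exporter of prostaglandins and cyclic nucleotides, had 148, 154 and 145 CPM in LNCaP vehicle, 1411, 1627 and 1525 in LNCaP R1881, 434, 486 and 435 in C4-2 vehicle and 915, 920.4 and 935 in C4-2 R1881. C4-2 vehicle lay above LNCaP vehicle and C4-2 R1881 below LNCaP R1881, with responses of 3.35 ± 0.071 and 1.03 ± 0.066 in LNCaP and C4-2 and an interaction of -2.32 ± 0.093 (adjusted p = 3.18e-11). ABHD2, a lipid hydrolase, gave -1.01 ± 0.098 (adjusted p = 1.73e-06), and SORD, sorbitol dehydrogenase, -1.20 ± 0.18 (adjusted p = 0.00017). ABHD2 sat at the fold threshold, at -0.95 without LNCaP siScr vehicle replicate 3, -0.97 without LNCaP siScr R1881 replicate 3, -0.94 without C4-2 siScr vehicle replicate 2 and -0.97 without C4-2 siScr R1881 replicate 1.

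The 24 genes induced in both lines with the stronger response in C4-2 had medians of 1.12 in LNCaP and 2.93 in C4-2. AKAP12 (chr6:151239999-151358557), a scaffold for protein kinase A, had 9.39, 12.2 and 13.4 CPM in LNCaP vehicle, 263, 329 and 328 in LNCaP R1881, 0.577, 0.349 and 0.298 in C4-2 vehicle and 124, 117 and 114 in C4-2 R1881. C4-2 started near 0 and stayed below LNCaP in R1881 while its response, 8.0 ± 0.20 against 4.69 ± 0.12, was larger (interaction 3.31 ± 0.29, adjusted p = 5.59e-07). SOCS2, a suppressor of cytokine signalling, had the same form, from 0.315, 0.407 and 0.298 to 19.8, 21.4 and 22.4 CPM in C4-2 and from 16.2, 14.8 and 12 to 57.8, 58.6 and 61.8 CPM in LNCaP (3.81 ± 0.25, adjusted p = 1.38e-08). PTPN21, a tyrosine phosphatase, had 19.4, 19.3 and 21 CPM in LNCaP vehicle, 65.5, 64.6 and 58.7 in LNCaP R1881, 7.92, 6.86 and 8.35 in C4-2 vehicle and 109, 115 and 119.7 in C4-2 R1881, with the highest level in C4-2 R1881 (2.27 ± 0.12, adjusted p = 1.31e-09). ADAMTS1, a secreted protease, had 827, 812 and 773 CPM in LNCaP vehicle, 911, 957 and 934 in LNCaP R1881, 55.9, 50.9 and 66.2 in C4-2 vehicle and 285, 289.7 and 289 in C4-2 R1881. It was high in LNCaP in both conditions, and R1881 raised the low level of C4-2 without reaching it (2.13 ± 0.10, adjusted p = 3.61e-10).

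Among the genes repressed in both lines, 69 fell further in LNCaP (medians -2.71 and -1.09, LNCaP first). SLITRK3 (chr3:165186720-165197109), a synaptic adhesion protein, had 92.3, 94.4 and 86 CPM in LNCaP vehicle, 1.00, 0.747 and 0.820 in LNCaP R1881, 6.4, 7.73 and 8.95 in C4-2 vehicle and 2.51, 2.24 and 2.80 in C4-2 R1881. All vehicle libraries lay above the R1881 libraries of their line, and LNCaP went from the highest to the lowest group, with an interaction of 5.16 ± 0.22 (adjusted p = 6.46e-11). SI, sucrase-isomaltase, lies next to SLITRK3 on chromosome 3 (chr3:164978898-165078495) and had 103, 112 and 94.5 CPM in LNCaP vehicle, 0.889, 0.374 and 0.702 in LNCaP R1881, 15.6, 15.5 and 14.3 in C4-2 vehicle and 1.56, 1.09 and 1.37 in C4-2 R1881. It fell in both lines and further in LNCaP (3.72 ± 0.28, adjusted p = 6.5e-08). STXBP5L, the exocytosis regulator tomosyn-2, had overlapping vehicle levels, 172, 180.4 and 164 CPM in LNCaP and 172, 179 and 175 CPM in C4-2, and fell to 15.7, 18.7 and 17.6 CPM in LNCaP and to 124, 131 and 126 CPM in C4-2 (2.85 ± 0.099, adjusted p = 1.54e-11). ANTXR1, a collagen-binding receptor, gave 2.32 ± 0.16, KCNJ3, an inward rectifier potassium channel, 4.60 ± 0.41 and VWA2 3.75 ± 0.41 (adjusted p = 2.83e-08, 6.1e-07 and 6.08e-06).

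The 20 genes that fell further in C4-2 had medians of -0.83 in LNCaP and -2.32 in C4-2. SYTL2 (chr11:85694224-85811159), an effector of Rab27 in vesicle docking, had 39.7, 43.5 and 36.8 CPM in LNCaP vehicle, 15.8, 18.8 and 14.6 in LNCaP R1881, 77.7, 88.2 and 91 in C4-2 vehicle and 5.29, 7.34 and 5.73 in C4-2 R1881. C4-2 vehicle held the highest and C4-2 R1881 the lowest level, an interaction of -2.50 ± 0.17 (adjusted p = 1.92e-08). VAV3, a guanine nucleotide exchange factor, fell from 11.8, 14.1 and 12.8 to 0.445, 0.458 and 0.686 CPM in C4-2 and from 3.49, 4.74 and 4.64 to 1.5, 0.523 and 0.820 CPM in LNCaP (-2.45 ± 0.43, adjusted p = 0.00073). IRF1, an interferon-regulated transcription factor, dropped from 17.1, 18.7 and 17.6 to 2.51, 2.64 and 2.68 CPM in C4-2 and from 5.19, 4.64 and 5.09 to 2.50, 4.18 and 3.51 CPM in LNCaP (-2.21 ± 0.25, adjusted p = 8.85e-06). ELF3, an epithelial ETS factor (-1.28 ± 0.15), PAG1, a membrane adaptor (-1.42 ± 0.13), and COLEC12, a scavenger receptor (-1.71 ± 0.28), also fell further in C4-2 (adjusted p = 1.29e-05, 8.7e-07 and 0.000415).

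The named genes with opposite responses were mostly expressed in both lines. GRIK2 (chr6:101398788-102070083), a kainate-type glutamate receptor, had 60.2, 58.3 and 54.1 CPM in LNCaP vehicle, 6.28, 6.13 and 5.85 in LNCaP R1881, 3.15, 3.90 and 3.28 in C4-2 vehicle and 7.46, 7.16 and 8.85 in C4-2 R1881. R1881 lowered LNCaP and raised C4-2, with no overlap in either line, and the levels with R1881 came close to each other from far apart. The responses were -3.24 ± 0.11 and 1.16 ± 0.13 (adjusted p = 1.44e-13 and 2.71e-06), an interaction of 4.40 ± 0.17 (adjusted p = 2.55e-11).

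MAP1B (chr5:72107234-72209570), a neuronal microtubule protein, had 386, 379.8 and 347 CPM in LNCaP vehicle, 152, 152 and 132 in LNCaP R1881, 178, 239.9 and 220.4 in C4-2 vehicle and 466, 496 and 453 in C4-2 R1881. It fell in LNCaP and rose in C4-2, exchanging which line was higher (2.50 ± 0.13, adjusted p = 1.31e-09). CFAP69, a cilium protein, fell slightly in LNCaP (-0.40) and rose in C4-2 (1.78), an interaction of 2.18 ± 0.18 (adjusted p = 1.91e-07). SYT4, a synaptotagmin, went from 213, 222 and 203 to 86.9, 102 and 89 CPM in LNCaP and from 1.31, 1.98 and 0.596 to 3.56, 3.55 and 3.55 CPM in C4-2, so the opposite changes took place at very different levels (2.41 ± 0.21, adjusted p = 4.36e-07). NCOA1, the steroid receptor coactivator SRC-1, had 171, 184 and 162 CPM in LNCaP vehicle, 111, 114 and 109 in LNCaP R1881, 205, 226 and 223 in C4-2 vehicle and 303, 336 and 346 in C4-2 R1881. It was the 1 called gene of 22 tested steroid receptor cofactors and chaperones (4.31% of all genes tested were called) and widened its lead in C4-2 under R1881 (-0.63 ± 0.07 in LNCaP, 0.59 ± 0.07 in C4-2, interaction 1.22 ± 0.099, adjusted p = 2.09e-07).

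In the other direction, up in LNCaP and down in C4-2, RAP2B (chr3:153162270-153167173), a small GTPase, had 17.6, 16.6 and 18.3 CPM in LNCaP vehicle, 23.9, 25.4 and 20.3 in LNCaP R1881, 144, 141 and 161 in C4-2 vehicle and 29.4, 29.97 and 29.98 in C4-2 R1881. C4-2 vehicle stood far above the other groups and R1881 brought it near to LNCaP, an interaction of -2.72 ± 0.12 (adjusted p = 1.11e-10). DUSP5, a phosphatase that inactivates ERK, had 2.24, 3.03 and 3.47 CPM in LNCaP vehicle, 8.28, 5.98 and 5.85 in LNCaP R1881, 3.73, 5.00 and 5.67 in C4-2 vehicle and 0.445, 0.287 and 0.499 in C4-2 R1881. The lowest vehicle library had 2.24 CPM, and the R1881 libraries were the highest in LNCaP and the lowest in C4-2, with responses of 1.19 ± 0.23 and -3.48 ± 0.30 and an interaction of -4.67 ± 0.38 (adjusted p = 2.29e-07). NECTIN3, a cell adhesion protein, rose in LNCaP from at most 1.04 CPM to 1.78, 2.54 and 2.22 CPM and fell in C4-2 from 31.9, 30.6 and 36.1 to 22, 18.1 and 19 CPM (-2.29 ± 0.34, adjusted p = 0.000164). HGF, the ligand of the receptor MET, had 0, 4, 2442 and 880 counts in LNCaP vehicle, LNCaP R1881, C4-2 vehicle and C4-2 R1881. It was expressed almost only in C4-2, where it dropped from 61, 62.3 and 61.7 to 16, 18.7 and 16.6 CPM (log2 -1.85 ± 0.097), and its rise in LNCaP rested on 4 read pairs. MET fell in C4-2 (log2 -2.22, adjusted p = 2.9e-06) and gave -0.78 in LNCaP (adjusted p = 0.0512), an interaction of -1.43 ± 0.40 (adjusted p = 0.0224).

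Some of the genes with the widest fitted differences had almost no counts in a group, and their counts are given in place of fitted fold changes. In the order LNCaP vehicle, LNCaP R1881, C4-2 vehicle and C4-2 R1881, the summed counts of 3 libraries were 0, 213, 4 and 0 for the keratin gene KRT6B, 1, 58, 3 and 3 for TRIM53AP, 7, 148, 4 and 3 for AL589182.1 and 20, 106, 4 and 1 for SDK1, all induced in LNCaP only. Against a floor of 3 counts over the group, KRT6B rose in LNCaP by at least 6.20 on the log2 scale. The genes repressed in LNCaP only had 63, 0, 11 and 6 for AC069439.2, 132, 2, 2 and 3 for B3GNT6, 611, 14, 1 and 2 for the opioid receptor gene OPRK1 and 200, 5, 4 and 8 for FAM131B. The C4-2 groups held at most 11 counts for these 4 genes, so a fall in C4-2 was not detectable at this depth.

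Of these 8 genes, KRT6B was not called without C4-2 siScr vehicle replicate 1 (adjusted p = 1) and FAM131B without C4-2 siScr R1881 replicate 2 (0.0856). OPRK1 was not called without C4-2 siScr R1881 replicates 1 or 2 or C4-2 siScr vehicle replicate 2 (0.136, 0.138 and 0.0501). TRIM53AP was not called in 4, AL589182.1 in 7, AC069439.2 in 7, B3GNT6 in 7 and SDK1 in 9 of the 12 fits without 1 library, with adjusted p up to 0.189, 0.133, 0.235, 0.938 and 0.882. AL589182.1, AC069439.2, B3GNT6 and SDK1 also lost their call with either replicate block.

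In the same order of groups, the ephrin receptor gene EPHB6 had 9, 5, 8 and 125 counts and TDO2, tryptophan dioxygenase, 1, 7, 41 and 3 counts. TMEM92 had 0, 61, 34 and 135 counts, UGT2B24P 2, 481, 5 and 81, TMEM100 5, 30, 0 and 196, NPNT 33, 142, 0 and 38 and RSAD2, the antiviral protein viperin, 22, 61, 16 and 0. Against the floor, TMEM92 rose in LNCaP by at least 4.40, TMEM100 and NPNT rose in C4-2 by at least 5.65 and 3.29, and RSAD2 dropped in C4-2 by at least 2.79 on the log2 scale. The counts were 110, 31, 2 and 17 for SEMA6D, 54, 1, 44 and 21 for AC100860.1 and 313, 102, 51 and 3 for AC109466.1. EPHB6 lost its call without LNCaP siScr vehicle replicate 1 (adjusted p = 0.0894), TDO2 without LNCaP siScr R1881 replicate 3 (0.271), NPNT without C4-2 siScr vehicle replicates 1 or 2 (0.0946 and 0.0726), AC100860.1 without LNCaP siScr R1881 replicate 1 or C4-2 siScr R1881 replicate 2 (0.0613 and 0.0507), and UGT2B24P without LNCaP siScr vehicle replicates 2 or 3 or C4-2 siScr vehicle replicate 1 (0.0615, 0.0573 and 0.414). The low-count genes ADAM2 (3.86 ± 0.55, adjusted p = 0.000111), AC013652.1 (2.92 ± 0.50, adjusted p = 0.000589) and APOL1, an apolipoprotein (-4.30 ± 0.80, adjusted p = 0.00131), moved in opposite directions and kept their call in all 12 fits.

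The lines also differed before R1881 was added, and the interaction is by construction the difference of the gap with R1881 and the gap in vehicle. Of the 113 genes induced in LNCaP only, 45 were at least 2-fold higher in C4-2 than in LNCaP in vehicle and 14 at least 2-fold lower, whereas with R1881 12 were higher and 66 lower. Among the 89 genes repressed in C4-2 only, 45 were at least 2-fold higher in C4-2 vehicle, as NR2F1 was, and 18 with R1881. For the 125 genes repressed in LNCaP only, 62 were at least 2-fold lower in C4-2 vehicle, as ZBTB43 was, and 15 with R1881. For the 92 genes induced in both lines and stronger in LNCaP the vehicle counts were 41 higher and 9 lower. Over all genes tested, 12% were at least 2-fold higher and 14.7% at least 2-fold lower in C4-2 vehicle, and 11.6% and 14.1% with R1881. These shares are descriptions, and no test was made of them.

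Lists of genes for pathways of the prostate epithelium were examined next, and each count of called members is set beside the 2.01% higher and 2.30% lower of all genes tested. The lists and their members were chosen with earlier results of these data known, so these contrasts are descriptions. Of 27 androgen-induced genes, 25 were induced in LNCaP and 23 in C4-2 (5.29% and 4.02% of all genes tested), and the interaction was called lower in C4-2 for 9 and higher for 0. The medians of the log2 responses were 3.22 in LNCaP, 2.48 in C4-2 and -0.70 for the interaction, against -0.041, -0.021 and 0.0027 over all genes tested. Beside KLK2, TMPRSS2, STEAP4, ABCC4 and SORD, the called members were HPGD, a prostaglandin dehydrogenase (-2.12 ± 0.44, adjusted p = 0.00285), CENPN, a centromere protein (-1.64 ± 0.11, adjusted p = 2.21e-08), ACPP, prostatic acid phosphatase (-1.47 ± 0.14, adjusted p = 8.7e-07), and TSC22D3, the leucine zipper protein GILZ (-1.17 ± 0.18, adjusted p = 0.000202). ACPP rose in LNCaP (0.80) and fell in C4-2 (-0.67). By contrast CAMKK2, a calcium-dependent kinase, and TRPM8, a cold-sensing ion channel, rose more in C4-2, by interactions of 0.57 ± 0.099 and 0.60 ± 0.18 that stayed under the fold threshold (adjusted p = 0.000751 and 0.0297). SLC45A3, a prostate transporter also called prostein, responded by 3.98 and 4.03, an interaction of 0.049 ± 0.11 (adjusted p = 0.969).

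**Figure D3:**
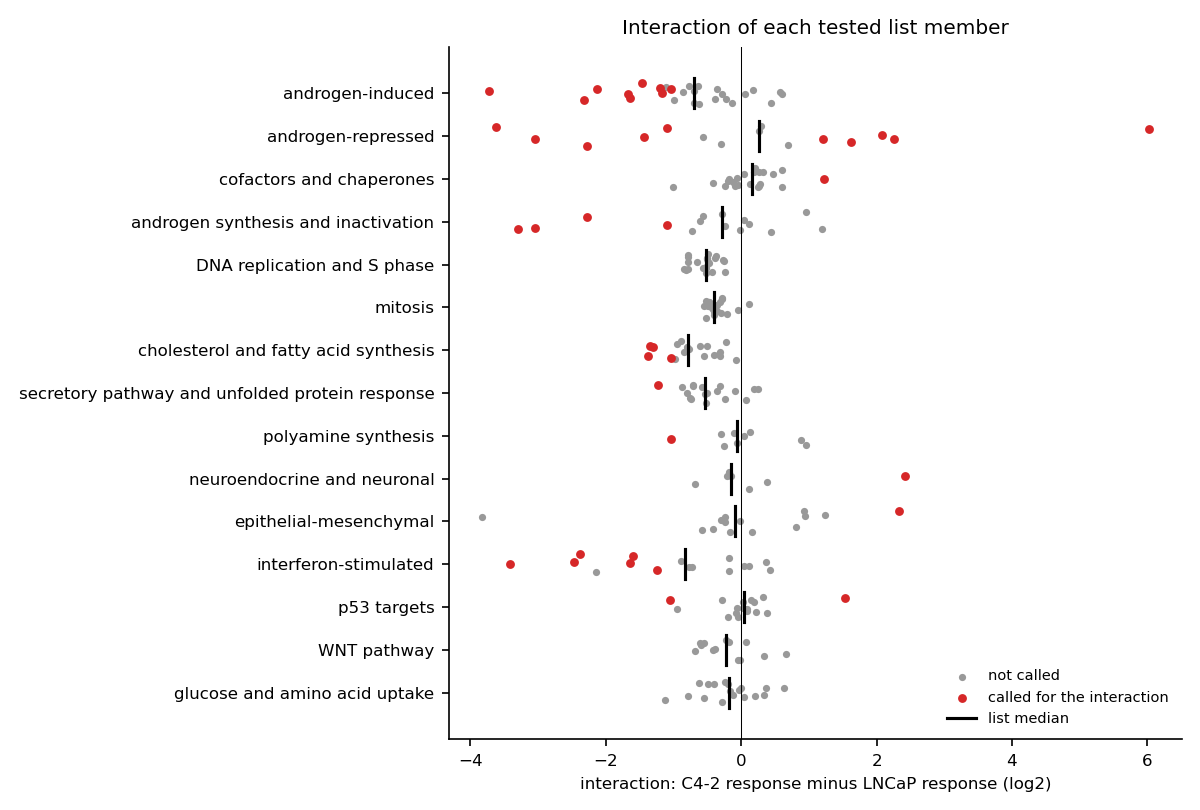
Interaction (log2, C4-2 response minus LNCaP response) of each tested member of the 15 lists; red points were called, black bars are list medians, and members with 3 or fewer counts in a group are drawn at their pooled count ratio with empty groups set to 3 counts. Called members of the androgen-induced, cholesterol and interferon lists all lie below 0.

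The androgen-repressed list was split. Of 15 tested genes, the interaction was higher in C4-2 for 5 and lower for 5, with 7 repressed in LNCaP and 9 in C4-2 (5.93% and 4.94% of all genes tested). UGT2B28 and UGT2B11 of this list rose in both lines. BCHE, butyrylcholinesterase, fell to different extents (-5.47 in LNCaP, -3.21 in C4-2, interaction 2.26 ± 0.13, adjusted p = 3.07e-09). DDC, the dopa decarboxylase gene (2.08 ± 0.097, adjusted p = 2.41e-10), and CAMK2N1, an inhibitor of calmodulin kinase (1.62 ± 0.12, adjusted p = 8.13e-08), also fell more in LNCaP. CITED2, a coactivator of CBP and p300, fell in LNCaP (-0.55) and rose in C4-2 (0.66), an interaction of 1.21 ± 0.11 (adjusted p = 9.46e-07).

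The UGT2B genes encode glucuronosyltransferases, some of which attach a sugar acid to androgens and so inactivate them. The genes lie in a cluster on chromosome 4. UGT2B28 (chr4:69280487-69423402) had 2.50, 3.36 and 3.19 CPM in LNCaP vehicle, 202, 275 and 207 in LNCaP R1881, 11.8, 11.7 and 11 in C4-2 vehicle and 106, 101 and 103 in C4-2 R1881. Both lines rose without overlap, LNCaP from a lower to a higher level than C4-2, and the interaction was -3.05 ± 0.18 (adjusted p = 5.06e-09). UGT2B11 had 40.3, 48.1 and 48.7 CPM in LNCaP vehicle, 884, 1158 and 951 in LNCaP R1881, 52.9, 43.6 and 25.3 in C4-2 vehicle and 199, 195 and 188 in C4-2 R1881, with an interaction of -2.28 ± 0.21 (adjusted p = 8.7e-07).

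UGT2B10 had 10.02, 11.1 and 12.7 CPM in LNCaP vehicle, 39.3, 46.8 and 41.4 in LNCaP R1881, 14.7, 13 and 9.84 in C4-2 vehicle and 4.68, 5.33 and 4.86 in C4-2 R1881, and so rose in LNCaP and fell in C4-2 (-3.30 ± 0.19, adjusted p = 2.55e-09). UGT2B17 fell in both lines, from 612, 614 and 636 to 308, 376 and 333 CPM in LNCaP and from 32.2, 28.5 and 36.4 to 9.80, 7.68 and 6.67 CPM in C4-2 (-1.09 ± 0.16, adjusted p = 0.000119), and was at -0.98 without C4-2 siScr R1881 replicate 3. UGT2B15 fell in both lines, with log2 responses of -1.37 and -1.93 (interaction -0.56 ± 0.14, adjusted p = 0.0133), which was not called. These 4 UGT2B genes were the called members of the 15 tested genes of androgen synthesis and inactivation, all lower in C4-2. UGT2B genes are near-identical copies, so reads may be split or dropped between them and their values are uncertain.

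Of 20 genes of cholesterol and fatty acid synthesis, 14 were called as induced in LNCaP and 3 in C4-2 (5.29% and 4.02% of all genes tested), with medians of 1.51 and 0.66. The interaction was called lower in C4-2 for 4, and with the adjusted p alone for 18 (8.29% of all genes tested were lower and 6.28% higher by that rule), with a median of -0.78. FASN (chr17:82078333-82098332), fatty acid synthase, had 1797, 1405 and 1675 CPM in LNCaP vehicle, 7468, 5779.7 and 6698 in LNCaP R1881, 2024, 2263 and 1786 in C4-2 vehicle and 2835, 3505 and 3208 in C4-2 R1881. The vehicle libraries of the lines overlapped and the LNCaP R1881 libraries were the highest, an interaction of -1.38 ± 0.15 (adjusted p = 7.05e-06).

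FDFT1, squalene synthase, gave an interaction of -1.30 ± 0.11 (adjusted p = 5.19e-07), and HMGCS1, HMG-CoA synthase, -1.04 ± 0.14 (adjusted p = 6.23e-05). HMGCS1 was under the fold threshold without LNCaP siScr R1881 replicate 3 (-0.99) and without C4-2 siScr R1881 replicates 1 (-0.96) or 3 (-0.999). SCD, the stearoyl-CoA desaturase, gave -0.98 ± 0.10 (adjusted p = 3.43e-06). SREBF1, which encodes a regulator of these genes, gave 0.055 in LNCaP and -0.02 in C4-2.

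**Figure D4:**
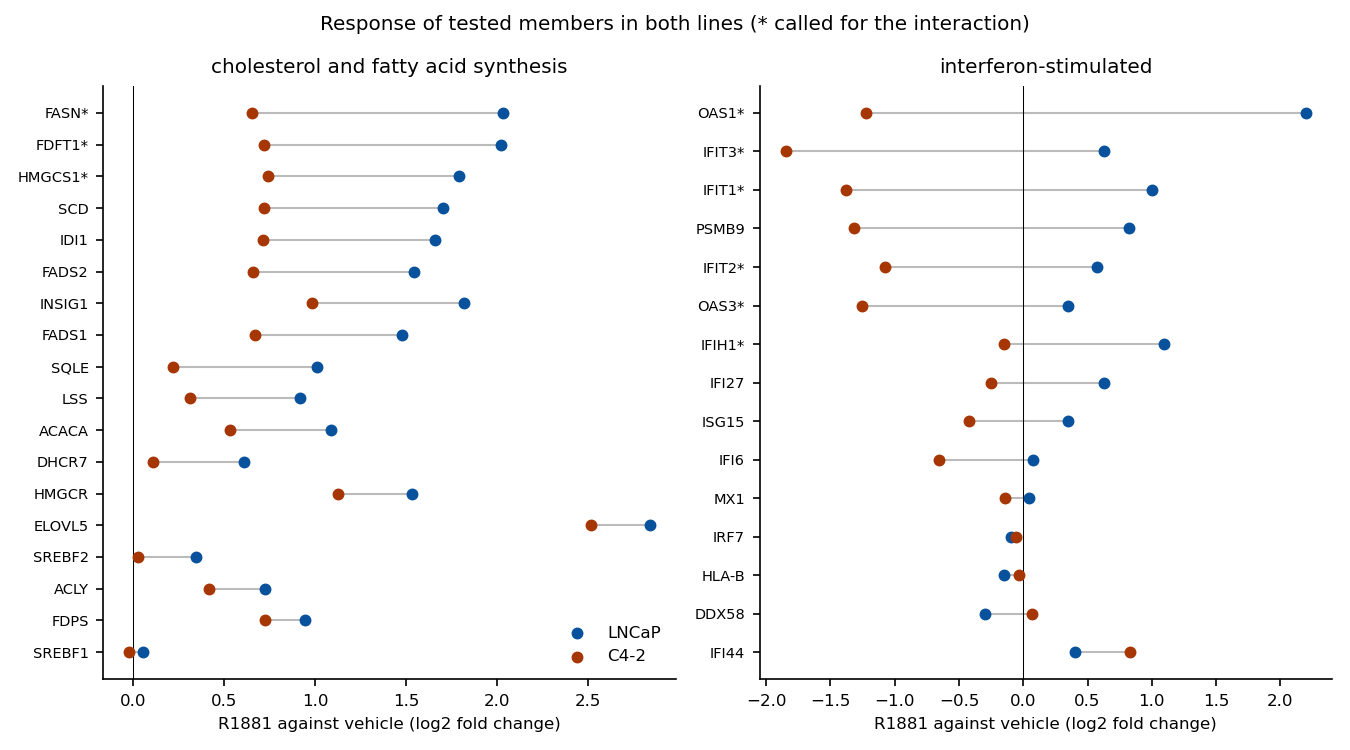
Log2 fold change with R1881 in LNCaP (blue) and C4-2 (brown) for genes of cholesterol and fatty acid synthesis and of the interferon-stimulated list, with called genes starred. Each lipid gene drawn has the LNCaP point to the right, whereas each of the 6 called interferon genes has its LNCaP point above 0 and its C4-2 point below 0.

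Genes of the secretory pathway and the unfolded protein response, which fold and export proteins, were tested for 18 members. Of these, 7 were induced in LNCaP and 1 in C4-2 (5.29% and 4.02% of all genes tested), and the interaction was lower in C4-2 for 12 with the adjusted p alone (8.29% of all genes) and for 1 with the fold threshold. That member, SDF2L1, an endoplasmic reticulum chaperone component, had 14.6, 10.1 and 15.4 CPM in LNCaP vehicle, 26.1, 22.4 and 21.8 in LNCaP R1881, 36.4, 31.2 and 36.4 in C4-2 vehicle and 28.3, 23.8 and 25.6 in C4-2 R1881. It rose in LNCaP (0.82 ± 0.14) and fell in C4-2 (-0.41 ± 0.13), an interaction of -1.23 ± 0.19 (adjusted p = 0.000234). EDEM1, which marks misfolded proteins for disposal, gave -0.87 ± 0.098 and HERPUD1 -0.80 ± 0.097 (adjusted p = 8.44e-06 and 1.79e-05). Among 9 polyamine genes, SMS, spermine synthase, was called lower (-1.04 ± 0.13, adjusted p = 2.1e-05), with 99.7, 115 and 116 CPM in LNCaP vehicle, 709, 815 and 746 in LNCaP R1881, 105, 105 and 80.8 in C4-2 vehicle and 346, 311 and 327 in C4-2 R1881. SMS was under the fold threshold without LNCaP siScr vehicle replicate 1 (-0.99), LNCaP siScr R1881 replicate 2 (-0.998) or C4-2 siScr vehicle replicates 1 or 2 (-0.98 each). SAT1, which breaks polyamines down, rose more in C4-2 (0.89 ± 0.11, adjusted p = 2.35e-05) and was not called.

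Cell-cycle genes differed by less than the fold threshold. Over all genes tested, 27.2% had an unadjusted p under 0.05 for the interaction and 8.29% were lower in C4-2 with the adjusted p alone. In edgeR 0 of 22 genes of DNA replication and S phase were called (20 had an unadjusted p under 0.05, and DESeq2 called 0), but 15 were lower in C4-2 with the adjusted p alone, and the medians were 0.22 in LNCaP, -0.36 in C4-2 and -0.51 for the interaction. CDC6, a licensing factor of replication origins, gave 0.28 in LNCaP and -0.51 in C4-2 (-0.79 ± 0.12, adjusted p = 0.000155). RRM2, a subunit of ribonucleotide reductase, gave 0.54 and -0.25 (-0.78 ± 0.12, adjusted p = 0.00029), and MCM5, of the replicative helicase, 0.25 and -0.56 (-0.82 ± 0.12, adjusted p = 0.000194). For the 20 mitosis genes 0 were called (16 had an unadjusted p under 0.05, and DESeq2 called 0), 12 were lower with the adjusted p alone and the median interaction was -0.40. That count was 6 without C4-2 siScr R1881 replicate 3 and 8 without each of LNCaP siScr vehicle replicate 2, LNCaP siScr R1881 replicate 3 and C4-2 siScr vehicle replicate 1. MKI67, the proliferation antigen Ki-67, gave 0.0074 in LNCaP and -0.49 in C4-2 (-0.50 ± 0.11, adjusted p = 0.00573).

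Interferon-stimulated genes, which interferon signalling induces in antiviral defence, included members that rose in LNCaP and others that fell in C4-2. Of 16 tested, 3 were induced in LNCaP and 0 in C4-2 (5.29% and 4.02% of all genes tested), 0 were repressed in LNCaP and 5 in C4-2 (5.93% and 4.94%), and the interaction was lower in C4-2 for 6 and higher for 0, with a median of -0.83. The median was -1.32 without C4-2 siScr R1881 replicate 3, and -0.36 once every library was thinned to the lowest total (12 members tested, 3 called). OAS1 (chr12:112906777-112933222), an oligoadenylate synthetase, had 0.268, 0.853 and 0.951 CPM in LNCaP vehicle, 2.89, 3.21 and 4.04 in LNCaP R1881, 2.36, 3.14 and 2.68 in C4-2 vehicle and 1.00, 1.26 and 1.25 in C4-2 R1881. The libraries did not overlap within either line, LNCaP rising and C4-2 falling (-3.42 ± 0.46, adjusted p = 5.63e-05). IFIT1, which binds viral RNA, had 1.43, 1.33 and 1.51 CPM in LNCaP vehicle, 2.72, 2.99 and 2.87 in LNCaP R1881, 1.63, 0.814 and 1.79 in C4-2 vehicle and 0.501, 0.745 and 0.249 in C4-2 R1881, with the same signs (-2.38 ± 0.51, adjusted p = 0.00388).

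IFIT3, a partner of IFIT1, had 1.88, 1.47 and 1.40 CPM in LNCaP vehicle, 2.22, 2.84 and 2.22 in LNCaP R1881, 1.84, 2.73 and 3.58 in C4-2 vehicle and 0.668, 0.745 and 0.686 in C4-2 R1881, and fell in C4-2 only (-2.48 ± 0.42, adjusted p = 0.000537). IFIT2 had 4.74, 4.55 and 3.19 CPM in LNCaP vehicle, 6.17, 7.32 and 5.03 in LNCaP R1881, 7.24, 8.37 and 5.67 in C4-2 vehicle and 3.84, 2.92 and 3.62 in C4-2 R1881. The LNCaP libraries stood higher with R1881 than in vehicle and the C4-2 libraries lower, with no overlap (-1.65 ± 0.30, adjusted p = 0.00107). OAS3 gave 0.35 and -1.25, and IFIH1, the RNA sensor MDA5, 1.09 and -0.15 (interactions -1.61 ± 0.18 and -1.24 ± 0.18, adjusted p = 1.04e-05 and 0.000141). No group held more than 301 counts over 3 libraries for OAS1 and the IFIT genes, which limits their precision.

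The upstream sequences of IFIT1 and IFIT3 are shown because interferon-stimulated genes carry a known element, whose core was searched as GAAA and GAAA with any 2 bases between them. Capitals mark its matches on either strand in the 250 bases before the RefSeq start (GRCh38.p14, plus strand), IFIT1 at chr10:89392373-89392622 and IFIT3 at chr10:89327747-89327996.
IFIT1: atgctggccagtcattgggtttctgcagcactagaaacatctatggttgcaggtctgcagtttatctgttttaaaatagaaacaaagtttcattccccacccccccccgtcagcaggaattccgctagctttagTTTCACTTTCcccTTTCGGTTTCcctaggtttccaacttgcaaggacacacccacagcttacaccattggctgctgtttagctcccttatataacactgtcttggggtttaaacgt
IFIT3: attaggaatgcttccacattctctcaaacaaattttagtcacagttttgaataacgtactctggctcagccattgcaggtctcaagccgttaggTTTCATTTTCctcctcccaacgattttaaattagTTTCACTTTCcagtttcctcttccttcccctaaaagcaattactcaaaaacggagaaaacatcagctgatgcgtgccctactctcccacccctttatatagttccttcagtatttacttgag
Both windows held 2 matches. The core was found in 8 of the 12 list members with a promoter sequence and in 263 of all 11357 (2.32%). It was found in 7 of 65 genes repressed in C4-2 only (10.8%) and in 4 of 44 genes up in LNCaP and down in C4-2 (9.09%), in 1 of 63 repressed in LNCaP only (1.59%), in 0 of 36 down in LNCaP and up in C4-2 and in 1 of 14 induced in both lines and stronger in C4-2 (7.14%). In each of the other classes it was found in at most 1 gene. By direction, 13 of 269 genes called lower in C4-2 (4.83%) and 5 of 221 called higher (2.26%) held it. The carriers repressed in C4-2 only, and those up in LNCaP and down in C4-2, were CHRM1, FOXD2-AS1, IFIT3, LGALS3BP, PDGFRB, SIDT1 and TNFSF10, and ACTA2, IFIT1, OAS3 and SAMD9. HERC5, an interferon-induced ligase with 3 matches, went the other way, with log2 responses of 1.96 in LNCaP and 4.04 in C4-2 (interaction 2.07, adjusted p = 8.24e-05). A match is a description of the letters and no evidence that a factor binds there.

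The remaining lists held few called genes. In the epithelial-mesenchymal list (14 tested) SNAI2, the transcription factor SLUG, was called higher in C4-2. It had 0.179, 0.616 and 0.671 CPM in LNCaP vehicle, 12.2, 14.6 and 10.9 in LNCaP R1881, 0.210, 0.116 and 0 in C4-2 vehicle and 19.9, 16.6 and 19.2 in C4-2 R1881, rising in both lines and further in C4-2 (2.33 ± 0.54, adjusted p = 0.00689). Without LNCaP siScr vehicle replicate 1 or LNCaP siScr R1881 replicate 2 the list held 2 called genes. In the neuroendocrine list 7 of 17 genes passed the filter, and SYT4 was the 1 called. Of 18 p53 targets SESN1 and FAS were called, FAS, a death receptor, with 10.4, 13 and 11.5 CPM in LNCaP vehicle, 13.1, 16.3 and 13.1 in LNCaP R1881, 5.83, 6.51 and 5.96 in C4-2 vehicle and 3.45, 4.36 and 2.87 in C4-2 R1881. FAS lay at the threshold (-1.05 ± 0.23, adjusted p = 0.00488), with -0.999 without LNCaP siScr vehicle replicate 1, -0.96 without LNCaP siScr R1881 replicate 2, -0.99 without C4-2 siScr vehicle replicate 2 and -0.93 without C4-2 siScr R1881 replicate 3. In edgeR 0 of 13 genes of the WNT pathway and 0 of 18 of glucose and amino acid uptake were called, with 3 and 9 at an unadjusted p under 0.05 (27.2% of all genes tested) and 0 called by DESeq2 in either list. With the adjusted p alone, 5 uptake genes were lower in C4-2 and 2 higher, and 2 WNT genes were lower and 0 higher. By that rule 8.29% of all genes tested were lower and 6.28% higher. Without LNCaP siScr vehicle replicate 1 the WNT list held 1 called gene.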

How the data were processed

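The authors trimmed 150-base paired-end reads of poly(A) RNA with TrimGalore, aligned them with STAR to GRCh38 and deposited counts of read pairs per gene from featureCounts 1.5.0-p1 (Ensembl 83, strand not used). The deposited counts were used as they stand, with totals of 3182604 to 20154243 per library; counting error is largest in the shallowest library and in genes near 0 counts. Groups followed the titles. Genes were filtered (filterByExpr, minimum count 10, minimum total 15), scaled by TMM and fitted with edgeR 4.0.16 in R 4.3.3 by its quasi-likelihood test, with 4 group means over 12 libraries. Adjusted p-values are Benjamini-Hochberg values over all 18138 genes, and calls also required a log2 change of at least 1. CPM are TMM-scaled, while marker sums use total counts. The fit was tested on simulated data. Symbols are from GENCODE 29, and promoters from RefSeq (GRCh38.p14), which matched 11357 of 18002 tested genes with a symbol and 68 of the 101 named genes.

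Named genes were 9 reference genes, up to 4 per class with the largest interaction (at least 1 mean CPM in a group, libraries not overlapping in the moving line), the 6 called genes of highest mean CPM and up to 4 called members per list. Those with a mean of at least 10 CPM per class, and further list members, were added after values were seen. The members and lists were chosen with earlier results of these data known. For genes with 3 or fewer counts in a group, counts are given, and bounds use a floor of 3 counts over the group. Alternatives were RLE scaling, DESeq2 1.42.0, other filters, all 18 libraries, replicate blocks, the adjusted p alone, glmTreat, thinned counts, each library left out, and, added after the data were seen, both shallowest libraries left out and the GC trend removed. Some members of the lists are not reported here by name, though they stay in the counts.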

Additional observations from a re-analysis of the deposited data

Results flagged for a closer look

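The difference between the lines was itself tested for each gene and was called for 782 genes, of which 400 responded in 1 line only. A further 205 responded in the same direction to different extents and 110 in opposite directions. These needed an adjusted p under 0.05 in each line and no fold threshold on the single line. With the 2-fold threshold in each line, 114 of the 782 were in the same direction. By that threshold 30 genes were opposite, counted without asking for the interaction call. Among well-measured genes named for opposite responses, the interaction (log2, C4-2 minus LNCaP) was 4.40 for GRIK2, 2.50 for MAP1B, 2.41 for SYT4 and 2.18 for CFAP69, all down in LNCaP and up in C4-2. It was -3.30 for UGT2B10, -2.72 for RAP2B and -2.29 for NECTIN3, up in LNCaP and down in C4-2. UGT2B10 shares near-identical sequence with other UGT2B genes. SYT4 in C4-2 and NECTIN3 in LNCaP were measured at a few CPM or less, and NECTIN3 was not called with counts thinned to the smallest library.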

How the results depend on the processing

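The total count of genes called for the interaction kept within 1.5 times of its value under RLE scaling (782 called), DESeq2 (738, of which 706 among the 782), no filter (822), all 18 libraries (808), both shallowest libraries left out (873) and the GC trend removed (817). With no filter, 44 genes in place of 20 were repressed in both lines and stronger in C4-2. Deviations of same-numbered libraries had correlations from -0.37 to 0.39 over all pairs of groups, with 5 of 18 over 0.1. Between vehicle and R1881 of LNCaP these were 0.32, 0.39 and -0.10 for replicates 1, 2 and 3. In C4-2 they were 0.0068, 0.18 and -0.033. Libraries with different numbers reached 0.45, so these values do not settle whether the numbers pair samples within a line. A replicate block gave 710 calls with the number shared by all groups and 718 with the number within each line. With at least 10 counts in each library the interaction was called for 391 genes (168 higher, 223 lower), R1881 for 796 in LNCaP and 613 in C4-2, and 144 differed in 1 line only and 131 in the same direction. With the adjusted p alone these were 2643 (1139 and 1504), 7247, 6421, 1605 and 739, with 254 opposite. With glmTreat they were 178 (70 and 108), 873, 593, 120 and 29, with 1 opposite. With counts thinned to the smallest library they were 417 (208 and 209), 1229, 949, 194 and 108, with 61 opposite. These alternatives test fewer genes, drop the fold rule, ask for more than a 2-fold change or use fewer counts by construction. Leaving out each library in turn gave 630 to 824 calls (270 to 351 higher, 344 to 473 lower), 1738 to 2282 in LNCaP, 1280 to 1719 in C4-2, 303 to 415 in 1 line only, 175 to 216 in the same direction and 87 to 125 opposite. For the 101 named genes, 2036 of 2151 alternative values kept the direction and the call, 108 lost it, 7 gained it and 0 reversed. This tally leaves out the adjusted p alone, glmTreat and any setting that gave a gene no value. Depth limits the genes near 0 counts, whose calls were lost most often.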
